A study of Homo sapiens with 12 samples.

Results

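The 10 genes described here encode the protein core of the U1 small nuclear ribonucleoprotein (snRNP): the U1-specific proteins SNRPC, SNRNP70 and SNRPA, and the Sm proteins SNRPB, SNRPD1, SNRPD2, SNRPD3, SNRPE, SNRPF and SNRPG. They were chosen by the complex they belong to and because SNRPC was among the genes that rose most after transfection of miR-145-5p, so the mimic effects on them are given as a description. Where genes past the threshold of the fit are counted in the mimic contrasts, the count is no test of these genes. All 10 were measured, among 18252 genes with at least 1 probe above background. Exon-level expression was profiled on 12 one-color Agilent arrays of total RNA from MDA-MB-231, a human triple-negative breast cancer cell line with mesenchymal features.

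There were 4 groups with 3 biological replicates each. The cntrl cells received control oligonucleotides in place of both the mimic and the siRNA, the mimic145 cells a miR-145-5p precursor mimic at 5 nM, the sirnaAGO2 cells a Dicer-substrate siRNA against AGO2 at 500 pM for 72 h, and the sirnaAGO2+mimic145 cells both agents. The labels give control oligonucleotides for the cntrl cells, and do not say whether the groups with a single agent also received a control for the other. Transient transfection of 1 cell line, with silencing that lowered AGO2 without removing it, limits what the groups model. Since bulk RNA was measured, a change in the RNA of all cells and a change in some of the cells cannot be told apart.

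The U1 snRNP recognizes the 5′ splice site through base pairing of its RNA and so starts spliceosome assembly, and it also protects transcripts from premature cleavage and polyadenylation. SNRNP70 and SNRPA bind stem-loops of U1 RNA, while SNRPC contacts the duplex between U1 RNA and the splice site and stabilizes it. The Sm proteins form a ring around a uridine-rich site that is shared by the U1, U2, U4 and U5 RNAs, and the SMN complex loads this ring in the cytoplasm. A change in a U1-specific protein thus concerns 1 particle, and a change in an Sm protein concerns several.

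The mimic carries the mature miR-145-5p, which normally lowers its targets through an Argonaute protein and its seed. Its sequence is shown because the comparisons with and without the mimic rest on it, with the seed, bases 2 to 8, in capitals (RefSeq, GRCh38.p14):
hsa-miR-145-5p: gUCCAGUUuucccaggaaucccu
Transcript ends and probe sequences were not used here, so seed matches in the 10 mRNAs were not looked for.

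On the arrays, 60.5% to 77.3% of spots were well above background and none was saturated. VIM, CD44, EGFR, CAV1 and AXL, which mark this line, were above background at 96.8% to 100% of their probe measurements, against 4.63% for PGR, 35.7% for ESR1 and 38.0% for CDH1, although EPCAM, also expected to be low, reached 85.0%. AGO2 fell by 0.71 (log2) in sirnaAGO2 against cntrl cells (SE 0.0761, limma adjusted p = 0.00488) and fell by 1.06 in sirnaAGO2+mimic145 against mimic145 cells (adjusted p = 0.000787). All silenced arrays lay below their controls in both cases, and the exact two-sided permutation p was 0.1, the smallest that 3 against 3 arrays allow. With any 1 replicate number left out both differences kept their sign, and neither passed the test. AGO2 was also 0.28 higher in mimic145 than in cntrl cells (SE 0.0761, adjusted p = 0.0300). Each slide carried the mimic array of a pair on its second position and its control on the first, so the mimic and the position on the slide cannot be told apart, and the silenced arms lay on other slides than the unsilenced ones.

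SNRPC rose strongly with the mimic whether or not AGO2 was silenced, while the other U1 proteins were lower in both arms. The log2 signal of SNRPC was 11.58, 12.10 and 11.98 in the cntrl replicates and 13.83, 13.84 and 13.76 in the mimic145 replicates. In silenced cells it was 11.54, 12.16 and 11.99 without the mimic and 13.41, 13.58 and 13.34 with it. Both pairs of groups were far apart, and replicate 1 was the lowest of its group only where no mimic was given. The difference was 1.92 (SE 0.124, n = 3 pairs) in control cells, a 3.80-fold change, and 1.55 (SE 0.124) in silenced cells, where signal with the mimic was 293% of that without. SNRPC had the highest rise of all 18252 genes in control cells and the third highest in silenced cells. Ranked by the lower of its 2 differences it was first, and all these ranks follow from the choice of the genes. PKIA, a protein kinase A inhibitor measured by 1 probe, was next at 1.32. Among the 13326 genes with at least 3 kept probes the next gene was IL24, a cytokine of the IL-10 family, at 0.96.

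SNRNP70, the protein that binds the first stem-loop of U1 RNA, moved the other way. Its log2 signal was 10.68, 10.72 and 10.56 in cntrl and 10.40, 10.48 and 10.47 in mimic145 cells. In silenced cells it was 10.77, 10.79 and 10.79 without the mimic and 10.26, 10.44 and 10.33 with it. The groups did not overlap in either arm, and the differences were -0.20 (SE 0.066) in control and -0.44 (SE 0.066) in silenced cells. SNRPA, which binds the second stem-loop, had 10.47, 10.64 and 10.24 in cntrl and 10.42, 10.59 and 10.01 in mimic145 cells, and 10.56, 10.71 and 10.40 in sirnaAGO2 and 10.22, 10.55 and 9.95 in sirnaAGO2+mimic145 cells. Replicate 3 was the lowest of SNRPA in every group, so the groups overlapped, although each of the 3 pairs was lower with the mimic in both arms. The differences were -0.11 (SE 0.076) and -0.32 (SE 0.076).

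**Figure D1:**
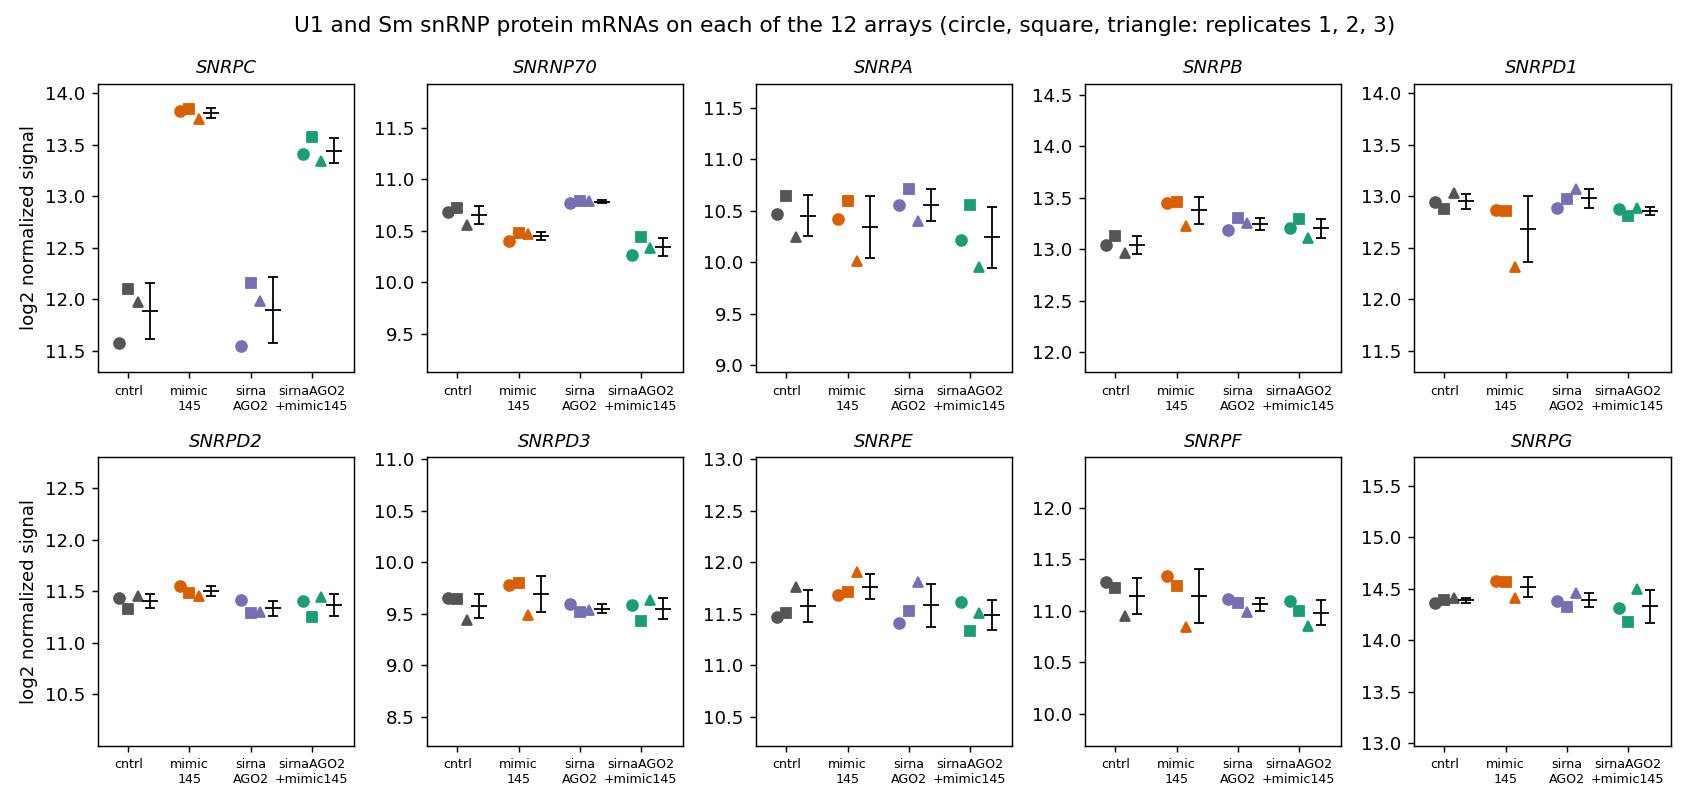
Log2 normalized signal (y axis) of each of the 10 genes on the 12 arrays, by group (x axis), with replicates 1, 2 and 3 as circle, square and triangle, and the group mean ± SD in black. Every panel spans the same range of log2 units, and SNRPC alone shows a gap of more than 1 log2 unit between arrays with and without the mimic.

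The Sm proteins differed much less with the mimic. SNRPB, the source of SmB and SmB′, had 13.04, 13.13 and 12.96 in cntrl and 13.45, 13.46 and 13.22 in mimic145 cells, without overlap, a difference of 0.33 (SE 0.0687). In silenced cells it had 13.18, 13.30 and 13.26 without the mimic and 13.21, 13.30 and 13.11 with it, a difference of -0.04 between overlapping groups. Its group means were thus higher in silenced than in control cells without the mimic (13.25 against 13.05), and lower with it (13.21 against 13.38).

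SNRPE, a ring protein that pairs with SmF and SmG before loading, had 11.47, 11.51 and 11.76 in cntrl and 11.69, 11.71 and 11.90 in mimic145 cells, a difference of 0.19 (SE 0.0946). In silenced cells it had 11.41, 11.52 and 11.81 without and 11.62, 11.34 and 11.51 with the mimic, and the difference was -0.09. Its pairs were higher with the mimic in all 3 control replicates but in replicate 1 alone of the silenced ones.

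SNRPD1, which pairs with SmD2 in the ring, was below every cntrl array on every mimic145 array, but only narrowly. It had 12.94, 12.88 and 13.03 in cntrl cells and 12.87, 12.86 and 12.31 in mimic145 cells. The closest arrays of these groups were thus at 12.88 and 12.87. The pair differences were -0.08, -0.02 and -0.71, so the mean of -0.27 (SE 0.139) rested on mimic145 replicate 3, without which it was -0.05. In silenced cells the 3 values without the mimic were 12.89, 12.98 and 13.07, and those with it 12.87, 12.81 and 12.89, a difference of -0.12.

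The mean signals of SNRPD2, SNRPD3, SNRPF and SNRPG, which complete the ring, differed by -0.01 to 0.13 with the mimic in control cells and by -0.08 to 0.03 in silenced cells, and their groups overlapped in both arms. Their arrays ranged from 11.25 to 11.55 for SNRPD2, from 9.43 to 9.80 for SNRPD3, from 10.84 to 11.34 for SNRPF and from 14.18 to 14.57 for SNRPG. These are signals of different probes, so their order across genes is not an order of abundance.

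Over the 10 genes the median mimic effect was 0.10 in control cells, with 6 higher and 4 lower, and -0.07 in silenced cells, with 3 higher and 7 lower, while over all genes the medians were 0.01 and 0.02. In control cells 2 of the 10 genes were past an adjusted p of 0.05, SNRPC and SNRPB, both higher, where 22.6% of all genes passed (11.6% higher). In silenced cells 3 were past it, SNRPC higher and SNRNP70 and SNRPA lower, where 7.24% of all genes passed (4.21% higher and 3.03% lower). The groups did not overlap for 4 of the 10 genes in control cells, against 28.4% of all genes, and for 3 in silenced cells, against 24.1%. As the genes were chosen with these contrasts known, nothing is read from these counts.

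**Figure D2:**
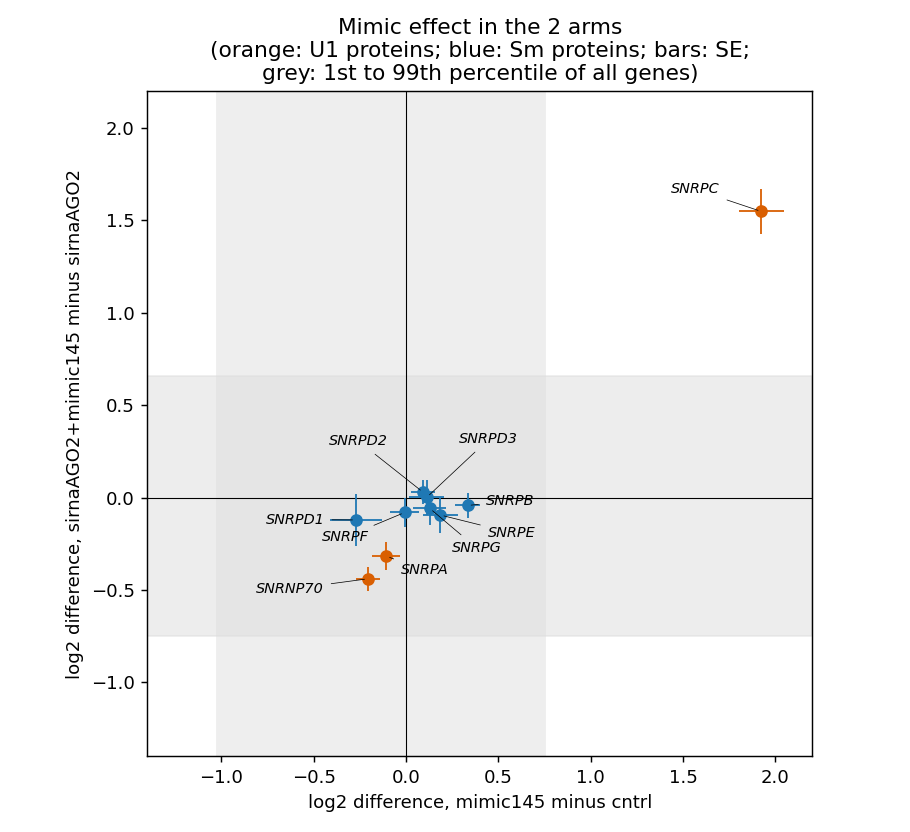
Mimic effect in control cells (x axis) against that in AGO2-silenced cells (y axis), both as log2 differences with SE bars, for U1-specific (orange) and Sm (blue) proteins, with grey bands from the 1st to the 99th percentile of all genes. SNRPC at 1.92 and 1.55 lies outside both bands and the other genes inside both.

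The exon arrays carried 60 probes for the 10 genes, 3 to 10 for each, of which 58 were kept. The 4 kept probes of SNRPC rose by 1.79 to 2.00 in control and by 1.51 to 1.57 in silenced cells, so the kept probes moved together. The remaining SNRPC probe was not well above background on any array and was left out. All 10 probes of SNRNP70 were lower with the mimic, by 0.10 to 0.46 in control and by 0.20 to 0.84 in silenced cells. SNRPB was higher at all 9 kept probes in control cells (0.06 to 0.42) and at 3 of 9 in silenced cells, and the remaining SNRPB probe was not kept.

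The probes of SNRPE disagreed. Of its 7 probes, 6 were 0.15 to 0.45 higher with the mimic in control cells, while A_37_P119141 was 0.77 lower. That probe had 10.71, 10.73 and 11.34 in cntrl and 9.01, 11.08 and 10.39 in mimic145 cells, so its replicates spread more than the difference. In silenced cells the outlying probe was A_33_P3320152, with 9.89, 9.79 and 11.26 without the mimic and 10.09, 9.13 and 9.34 with it. With the median over probes in place of the mean, the difference of SNRPE in control cells was 0.45.

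Whether a probe of the 10 genes departed from the other probes of its gene was tested for 2 contrasts. The mean silencing effect was not used to choose the genes. The difference between the mimic effects is formed from the 2 mimic contrasts that were. By limma's diffSplice, 0 of 58 probes passed for the mean silencing effect (2 at an unadjusted p under 0.05, lowest adjusted p = 0.622), where 0.552% of 140083 probes passed. For the difference between the mimic effects 0 of 58 passed as well (2 unadjusted, lowest adjusted p = 0.635), where 0.247% of all probes passed. In simulated arrays this test also called 779 probes of unchanged genes. With a spread estimated for each probe, a setting added after that, 9 and 0 probes passed over all genes, and again 0 of the 58, with 3 and 0 at an unadjusted p under 0.05. RefSeq names pseudogenes for 6 of the 10 genes, among them 20 each for SNRPC and SNRPG and 11 for SNRPE, and signal from such copies was not tested.

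**Figure D3:**
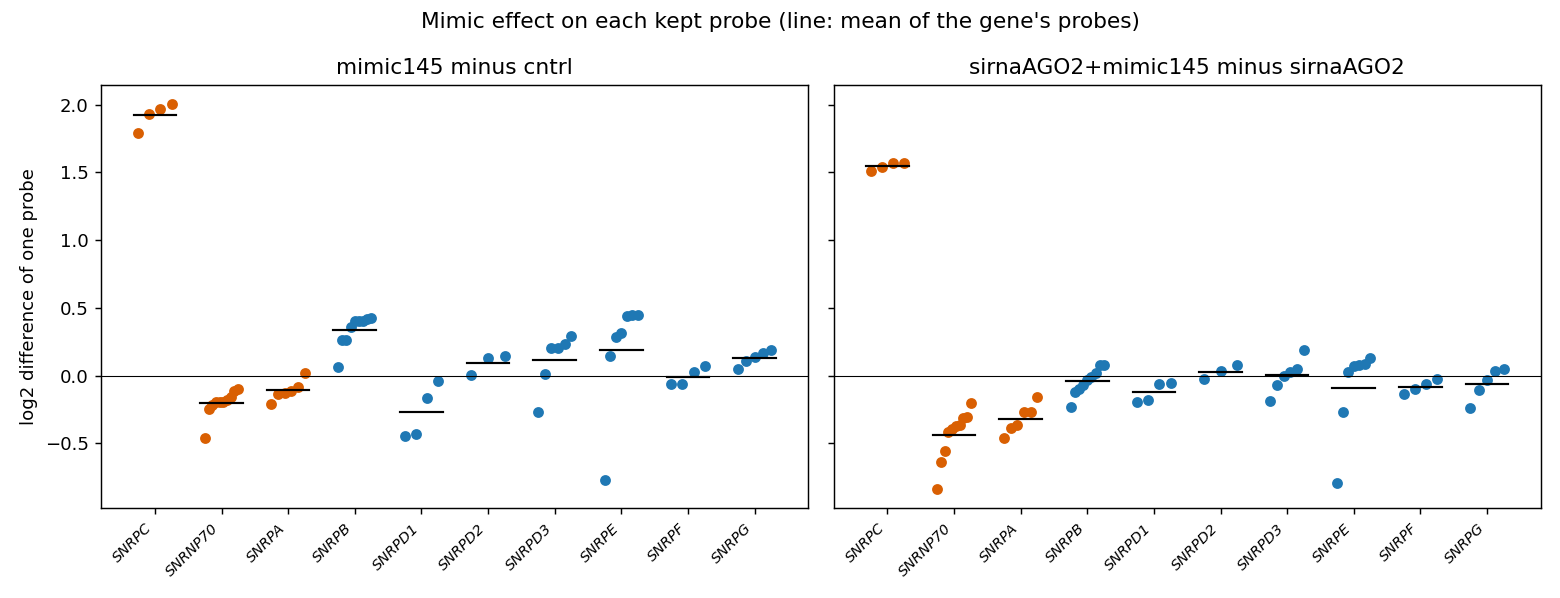
Log2 difference with the mimic (y axis) at each kept probe of the 10 genes (x axis), in control cells (left) and AGO2-silenced cells (right), with a line at the mean of each gene. The 4 SNRPC probes lie between 1.51 and 2.00 in both panels, all SNRNP70 probes lie below 0, and SNRPE has 1 probe near -0.8 in each panel.

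Silencing of AGO2 without the mimic gave no detectable difference in SNRPC, and no gene of the 10 passed the test in any silencing contrast. SNRPC differed by 0.01 between sirnaAGO2 and cntrl cells (95% interval -0.27 to 0.29, adjusted p = 0.970). SNRPB had the largest difference, 0.20 (SE 0.0687, adjusted p = 0.155), higher in 3 of 3 pairs. In that contrast 0 of 10 genes passed by limma, where 2.58% of all genes passed. SNRPB alone was at an unadjusted p under 0.05, beside 19% of all genes. SNRPB and SNRNP70 did not overlap between these groups, as did 19.1% of all genes. The median over the 10 genes was 0.01 and over all genes -0.03.

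With the mimic present, silencing was accompanied by lower signals in 9 of 10 genes, but again 0 passed, where 4.34% of all genes did. SNRPC was 0.36 lower in sirnaAGO2+mimic145 than in mimic145 cells (SE 0.124, adjusted p = 0.133), in 3 of 3 pairs, and its groups did not overlap. SNRPE was 0.28 lower (adjusted p = 0.134) and SNRPB 0.17 lower (adjusted p = 0.189). These 3 genes were those of the 10 at an unadjusted p under 0.05, beside 21.5% of all genes. SNRPE passed in 1 of 28 alternatives, without sirnaAGO2+mimic145 replicate 1 (-0.40, adjusted p = 0.0482). Groups did not overlap for SNRPC, SNRPD2 and SNRPE, against 14.8% of all genes. The median over the 10 genes was -0.15, against 0.00014 over all genes.

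The mean silencing effect, which in this balanced design is orthogonal to the mean mimic effect, ranged from -0.18 for SNRPC to 0.10 for SNRPD1. None of the 10 genes passed by limma (lowest adjusted p = 0.230, SNRPF), where 7.11% of all genes passed. None was at an unadjusted p under 0.05, beside 22.9% of all genes. The 95% interval for SNRPC was -0.38 to 0.02. In this fit, which has no term for the slide, the intervals of SNRNP70, SNRPA and SNRPB lay between -0.12 and 0.13. Over the alternative settings the SNRPB estimate ranged from -0.02 to 0.17, so its interval does not bound the effect across settings.

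**Figure D4:**
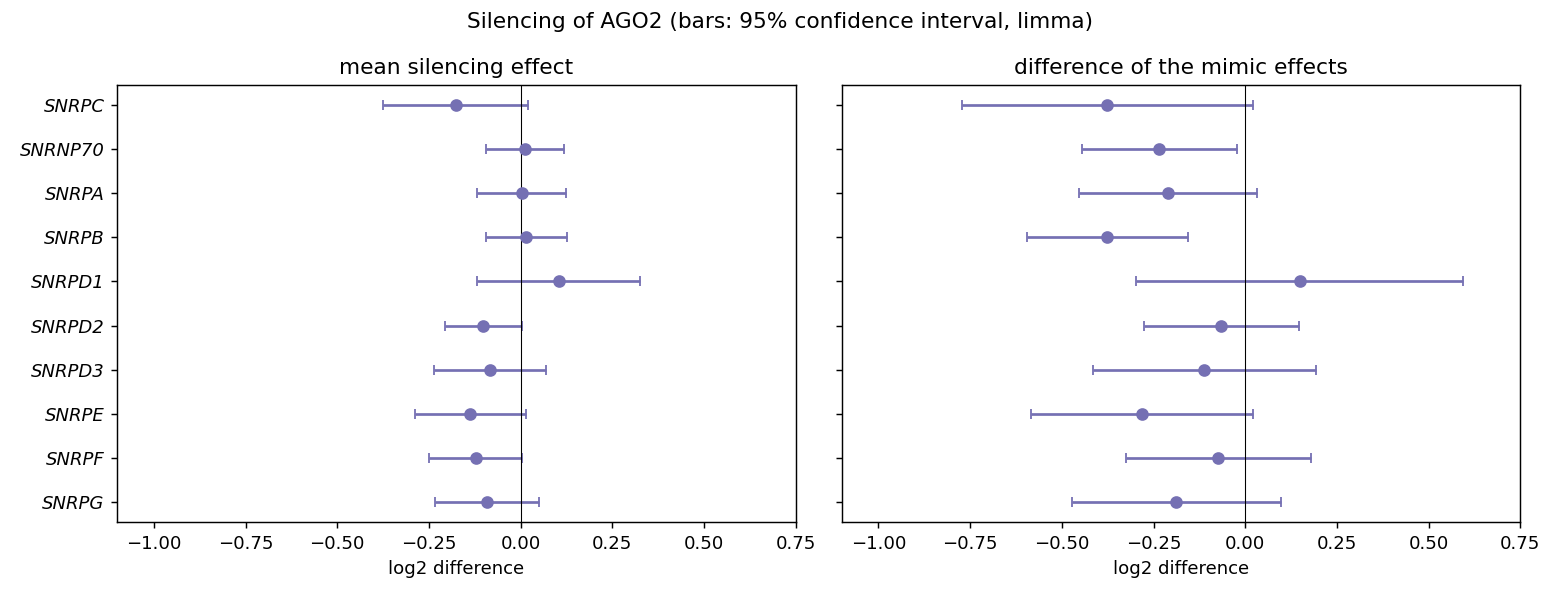
Mean effect of AGO2 silencing (left) and difference between the mimic effects in silenced and control cells (right), as log2 differences (x axis) with 95% intervals for the 10 genes (y axis). No gene passed the adjusted test in either panel, and in the right panel the intervals of SNRNP70 and SNRPB lie below 0.

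The question of whether the mimic acted differently where AGO2 was silenced was addressed by the interaction term. This term is formed from the 2 mimic contrasts on which the genes were chosen, so its p-values are not free of that choice. For SNRPC the mimic effect was smaller by 0.38 in silenced cells (SE 0.175, 95% interval -0.77 to 0.02, adjusted p = 0.321), in 3 of 3 replicates. SNRPB had the lowest p of the 10 genes, with a difference of -0.38 (SE 0.0971, 95% interval -0.60 to -0.16, adjusted p = 0.124), also in 3 of 3 replicates. SNRNP70 followed at -0.23 (adjusted p = 0.263). Thus 0 of 10 genes passed by limma, where 0.0110% of all genes passed, that is 2 genes. SNRPB and SNRNP70 were at an unadjusted p under 0.05, as were 16.8% of all genes. Of the 10 differences 9 were negative, with a median of -0.20 against 0.02 over all genes. As the intervals reach -0.77 for SNRPC, these values do not show that the mimic acted alike in both arms.

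The other components of the splicing snRNPs and their assembly, 72 genes in 6 lists and all measured, were counted in the same fit. In control cells 16 of the 72 rose and 6 fell with the mimic, 22 in all, where 22.6% of all genes passed and 11.6% rose, and their median was 0.05. In silenced cells 0 rose and 2 fell, where 4.21% of all genes rose and 3.03% fell, and the median was -0.06. Without the replicate block 8 of the 72 passed in control cells (5 higher and 3 lower) and 0 in silenced cells. Of the 9 U1-associated splicing factors LUC7L was the 1 that rose, in control cells (0.20, adjusted p = 0.0416).

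Among the 17 genes of snRNP assembly and transport, 4 rose in control cells, beside the 11.6% of all genes, and 0 fell. They were PRMT5 (0.77, SE 0.0775, adjusted p = 0.000369), the methyltransferase that modifies Sm proteins before ring assembly, its partner WDR77 (0.48), GEMIN6 (0.46), a subunit of the SMN complex, and PHAX (0.39), an adaptor for snRNA export. None of the 17 passed in silenced cells. The U2 snRNP list had 2 of 12 higher, led by SF3B4 (0.51, adjusted p = 0.0212), and 3 lower. Of the 8 proteins of the minor spliceosome 3 rose, led by SNRNP25 (0.44, adjusted p = 0.00392). Of the 16 U4/U6 and U5 proteins 4 rose, led by TXNL4A (0.33, adjusted p = 0.0191). Of the 10 LSm proteins 2 rose, led by LSM11 of the U7 snRNP (0.38, adjusted p = 0.0118), and 2 fell, and LSM5 was the 1 that fell in silenced cells (-0.37, adjusted p = 0.0271).

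With silencing alone 0 of the 72 passed by limma, where 2.58% of all genes passed. At an unadjusted p under 0.05 there were 10 of the 72, beside 19% of all genes. With the mimic present 2 rose and 3 fell, where 4.34% of all genes passed. SNRPA1 (0.28, adjusted p = 0.0311) was among those higher, and PRMT5 (-0.35, adjusted p = 0.0428) and SF3A3 (-0.33, adjusted p = 0.0450) were among those lower. For the mean silencing effect 2 rose and 4 fell, where 7.11% of all genes passed, among them SF3B3 (0.26, adjusted p = 0.0396) higher, and ZCRB1 (-0.24, adjusted p = 0.0155), LSM3 (-0.21, adjusted p = 0.0437), LSM4 and SF3B1 lower. None of these calls held when slide replaced replicate number as the block, or when no block was used, since 0 of the 72 then passed in each silencing contrast. For the difference between the mimic effects 0 of the 72 passed by limma, and the median was -0.12. At an unadjusted p under 0.05 there were 18 of the 72, beside 16.8% of all genes. The contrasts share arrays, so opposite signs of PRMT5 in the mimic and silencing contrasts are not separate evidence.

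**Figure D5:**
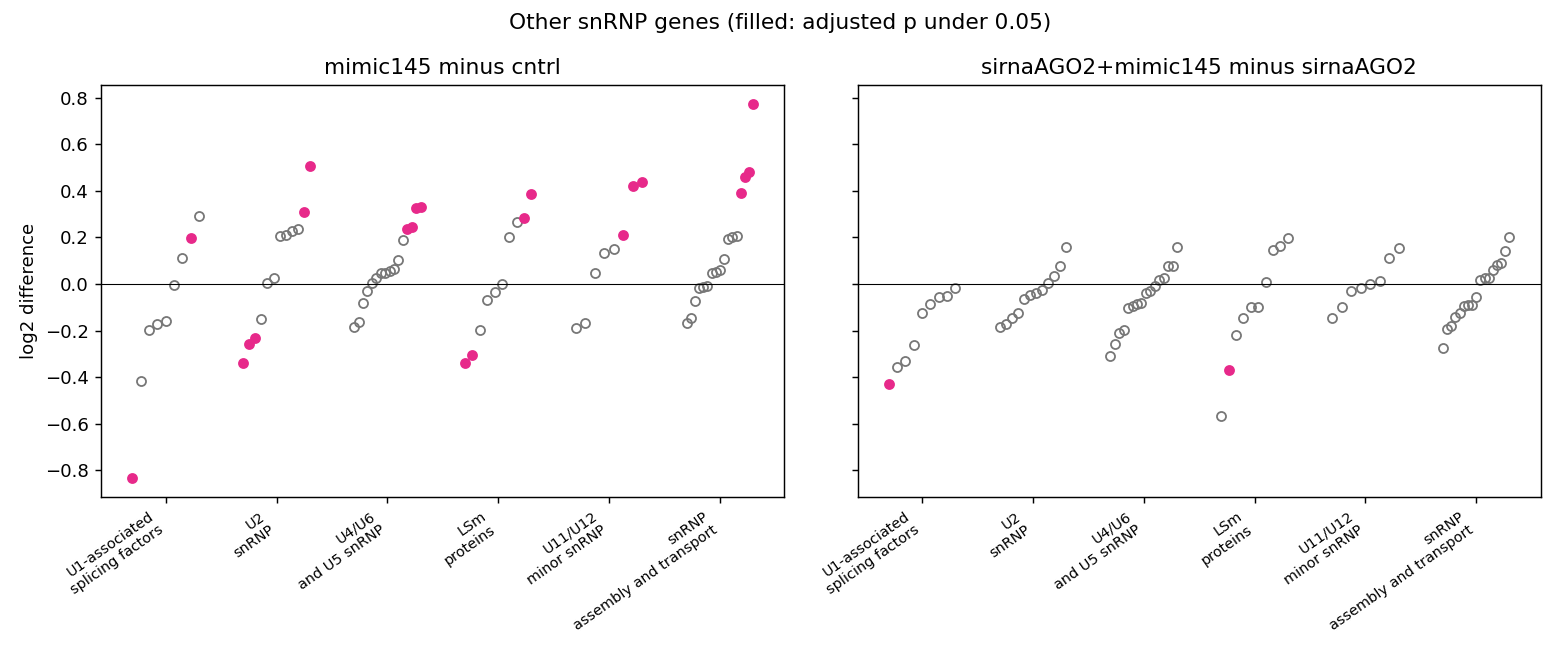
Log2 difference with the mimic (y axis) for the 72 other snRNP genes by list (x axis), in control (left) and AGO2-silenced cells (right), with genes at an adjusted p under 0.05 filled. In control cells 16 rose and 6 fell, with PRMT5 highest at 0.77, and in silenced cells 2 passed, both lower.

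The genes named here as closest in pattern to SNRPC were not snRNP genes. By the root mean square difference of centred log2 values over the 12 arrays, among 13326 genes with at least 3 kept probes, the 5 closest included SCML1 (0.38), COMMD10 (0.41), MYL9 (0.43), a myosin light chain, and IGFBP1 (0.44), a binding protein of insulin-like growth factors. Their mimic effects were 1.56, 1.16, 1.36 and 1.49 in control cells and 0.88, 0.77, 0.60 and 0.74 in silenced cells. Each effect was below that of SNRPC, which was itself chosen for its rise. The other genes of the U1 and Sm set lay at 0.82 to 1.05, with SNRPB closest, and the median over the 13326 genes was 0.90. Neighbours of SNRPC in RefSeq on GRCh38.p14, chosen after their values were seen, did not rise with it: ILRUN differed by 0.06 and BLTP3A by -0.11 in control cells (adjusted p = 0.751 and 0.367), and by -0.17 and -0.15 in silenced cells.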

How the data were processed

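Total RNA of MDA-MB-231 cells was labelled with Cy3 and hybridized to 12 SurePrint G3 Human Exon arrays. The authors extracted signals with Feature Extraction (version 10.7.3.1 per the file headers), and the deposited processed signal is a background-subtracted, linear intensity. The authors also deposited a log2 table of quantile-normalized values, floored at 1, used here as an alternative. From the intensities, probes were quantile normalized and log2-transformed, spots of a probe were averaged and outlier spots left out. Probes were named through RefSeq (209671 of 233164 assigned) and kept when well above background on all 3 arrays of a group (142919). A gene's value was the mean of its kept probes. Signals carry no counts, so the number of arrays limits the precision, with a median SE of 0.099.

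Comparisons used limma 3.58.1 (R 4.3.3) on all 12 arrays with the replicate number as a block, since the study's methods name a paired test, and Benjamini-Hochberg adjustment over 18252 genes (threshold 0.05). Same-numbered arrays deviated together (r 0.148 to 0.576 in 18 pairs, against -0.497 to 0.201 for 36 pairs of different numbers). Deviations were taken from group means, so these ranges are not independent of each other. Same-numbered arrays with and without the mimic also shared a slide. Genes named are all members, the gene of each list that passed with the largest change, the 5 genes closest to SNRPC and AGO2; some of these are not reported here, and others named in the text were chosen after their values were seen. Members and lists were chosen with earlier results of these data known. Fits were tested on simulated data with 200 genes changed by 1 log2 unit. Of these, 98.5% were found for the mean silencing effect and 81% for the difference between the mimic effects. There were 18 and 6 calls among unchanged genes. The estimates for the U1 and Sm genes were smaller, from -0.18 to 0.10 and from -0.38 to 0.15. Detection of changes of that size was not tested, so these rates are no measure of it.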

Additional observations from a re-analysis of the deposited data

How the results depend on the processing

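SNRPC kept its direction in every alternative, from 1.66 to 2.02 in control and from 1.33 to 1.65 in silenced cells. The genes were chosen on the mimic contrasts, so the counts of calls there describe the settings and do not test the genes. The number of the 10 genes called for the mimic in control cells was 2 (22.6% of all genes in the main fit). It was 3 with normexp, probes above background on all arrays, the median over probes, the slide as a random block or an intensity trend. In these settings 18.5% to 30.2% of all genes passed. It was 1 with each pair of groups fitted alone (9.95% of all genes) and with a log2 change over 0.5 (8.54%). By the methods' paired t-test it was 0, where 0 of all genes passed. It was 1 to 3 when a replicate or an array was left out. Without replicate 1 or 2 it was 1 (6.63% and 12.7% of all genes), and without cntrl replicate 3 it was 3 (15.5%). In silenced cells it was 3, and 2 with the median over probes or the slide as a random block. It was 1 without the replicate block, at an adjusted p under 0.01 or with a change over 0.5. With the pair fitted alone and by the paired t-test it was 0. When a replicate or an array was left out it was 0 to 3. It was 0 without replicate 2 or 3, and 1 without replicate 1, sirnaAGO2 replicate 2 or 3, or sirnaAGO2+mimic145 replicate 3. For silencing with the mimic it was 0, and 0 to 1 when a replicate or an array was left out. It was 1 without sirnaAGO2+mimic145 replicate 1, where 1.38% of all genes passed.

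AGO2 lost its call by the paired t-test (-0.71 and -1.06) and when any replicate number was left out (-0.78 to -0.64 without the mimic and -1.11 to -0.999 with it, over all such settings). It also lost it without sirnaAGO2 replicate 1 in silencing without the mimic, and with the pair fitted alone in silencing with it (-1.06). Over all genes the number called without the replicate block was 1987 against 4118 for the mimic in control cells, 78 against 1321 in silenced cells, 48 against 471 and 101 against 793 for silencing without and with the mimic, 278 against 1297 for the mean silencing effect and 0 against 2 for the difference between the mimic effects. With the slide as a random block, which bears on silencing since the arms lay on different slides, it was 36 and 90 for silencing without and with the mimic, 69 for the mean silencing effect and 30 for the difference, with 0 of the 10 genes in each. By the paired t-test 0 genes passed in any of these but the mean silencing effect, with 1, and with probes above background on all arrays 4943 passed for the mimic in control cells. Without the replicate block 0 of the 10 genes passed as well in the silencing contrasts and in the difference between the mimic effects. The causes were not tested.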
